A study of Mus musculus with 2 samples.

Results

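The Notch pathway was read out in haematopoietic stem cells (HSCs) sorted from mouse bone marrow, through 10 genes out of the 54531 listed. They were chosen by symbol, as a fixed list of receptors, ligands, the nuclear effector, a target and modifiers, and each symbol matched 1 Ensembl row. The genes are Notch1, Notch2, Notch3 and Notch4, the ligand genes Jag1 and Jag2, the nuclear effector Rbpj, the target Hes1 and the modifiers Dtx1 and Dtx4. The HSCs came from Cdh5-Cre;Angptl2fl/fl mice or from Angptl2fl/fl mice, by the genotype labels, with 1 RNA-seq library each, called mutant HSCs and control HSCs below. Floxed Angptl2 alleles, which encode a secreted angiopoietin-like protein, are thus named for both. In the mutant mice Cre is driven by the promoter of Cdh5, an endothelial cadherin gene, and the label calls the deficiency specific to endothelial cells. Whether HSCs kept Angptl2 is not stated. For the control sample, the description and the column header name Cdh5 and Cre without a floxed allele, so the control mice may differ from their genotype label. The sources used here do not give age, sort markers or the number of mice. Each genotype has a single library, so no difference below could be set against replicate spread and no p-value is given.

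Notch receptors are single-pass membrane proteins that bind Jagged or Delta-like ligands on a neighbouring cell. Ligand binding lets ADAM metalloproteases and then gamma-secretase cut the receptor, and the freed intracellular domain enters the nucleus. There it joins RBPJ, a DNA-binding protein that otherwise recruits corepressors, and Mastermind-like coactivators, and genes such as Hes1 are switched on. In blood formation, Notch1 is known for T cell commitment in the thymus and Notch2 for marginal zone B cells. Endothelial cells of the marrow are a known source of Notch ligands.

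In mutant HSCs Notch1, Rbpj, Notch2 and Jag2 were lower than in control HSCs, Dtx4 was higher, and Hes1 was nearly level. Notch1 was 2.26-fold lower and Dtx4 2.33-fold higher as ratios of FPKM (fragments per kilobase of gene length per 1000000 fragments, the deposited unit). Rbpj was 1.72-fold lower, Jag2 1.25-fold and Notch2 1.24-fold lower, and Hes1 was 1.11-fold higher. The other 4 members, Notch3, Notch4, Jag1 and Dtx1, stayed under a mean of 1 FPKM.

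The libraries were scaled to 16843100 fragments in mutant HSCs and 17378600 in control HSCs. These depths were recovered from the values themselves, since FPKM times gene length fell on whole fragments. Angptl2 was close to the detection limit at 0.18 FPKM (19 fragments) in mutant HSCs and 0.27 FPKM (29 fragments) in control HSCs. Those values do not check the genotypes. Of 11 HSC and early progenitor marker genes, all were above 0 in both libraries, and their summed level was 135 FPKM in mutant HSCs and 152 FPKM in control HSCs. In mutant HSCs 10 of the 11 were lower, most of all, among the 9 with a mean of at least 1 FPKM, Ly6a, which encodes Sca-1, at 2.86 FPKM in mutant HSCs and 4.49 in control HSCs. Kit, the stem cell factor receptor, was at 48.8 FPKM in mutant HSCs and 54.3 in control HSCs, and Procr, the protein C receptor, was at 4.68 FPKM in mutant HSCs and 5.33 in control HSCs.

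The members lie on 7 chromosomes of the mouse genome, given here on GRCm38 from GENCODE release M21. Notch1 lies on the minus strand of chromosome 2 at 26457903 to 26516663, and Rbpj on the plus strand of chromosome 5 at 53466152 to 53657362. Notch2 is on chromosome 3, Notch3 and Notch4 on 17, Jag1 on 2, Jag2 on 12, Hes1 on 16, Dtx1 on 5 and Dtx4 on 19. Their annotated exons add up to between 2037 bases for Hes1 and 14232 bases for Notch1. RBPJ recognises a DNA core read as TGGGAA, so the 250 bases before the annotated starts were searched for it on both strands, in RefSeq promoters of GRCm38.p6. Of the 10 members, 8 had an entry. The core was found before 1 of them, Rbpj, whose 2 listed starts have overlapping windows. The upstream start had 2 matches, 149 and 65 bases before it, and the downstream start shared the nearer of these. Over all 32851 promoters of the same length, 21.6% held it. The longer form GTGGGAA, which contains the core, was before none of the 8 and in 5.42% of all. A match is a description of letters and not a binding site. The stretches before Notch1 and Rbpj are shown because these members had the lowest ratios among those that averaged at least 1 FPKM. Each is the run of that window that no annotated exon covers, and capitals mark the core. The Notch1 run, chr2:26503825-26504072 on the minus strand, lies 250 to 3 bases before the start. The Rbpj run, chr5:53590096-53590213 on the plus strand, lies 250 to 133 bases before its upstream start.
Notch1: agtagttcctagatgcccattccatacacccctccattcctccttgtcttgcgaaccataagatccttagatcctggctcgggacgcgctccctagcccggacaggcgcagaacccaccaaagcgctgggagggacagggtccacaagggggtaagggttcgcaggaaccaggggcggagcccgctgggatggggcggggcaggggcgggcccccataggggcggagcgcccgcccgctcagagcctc
Rbpj: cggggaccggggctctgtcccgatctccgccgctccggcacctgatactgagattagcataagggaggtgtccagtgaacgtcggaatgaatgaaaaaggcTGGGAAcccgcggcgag

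Among the receptors, Notch2 was the most abundant per length in both libraries. Its level was 15.4 FPKM in mutant HSCs, from 2797 fragments, and 19.04 FPKM in control HSCs, from 3568 fragments. The log2 ratio without a pseudocount was -0.31, with a 95% counting interval of -0.38 to -0.23. Here and below, counting intervals are exact Clopper-Pearson intervals on the fragments of both libraries, and they cover counting error only, since PCR duplicates are not separate molecules. Fewer cells of a type and less RNA per cell cannot be told apart in such bulk samples.

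Notch1, the receptor tied to T cell commitment, was at 1.74 FPKM in mutant HSCs, from 418 fragments, and 3.93 FPKM in control HSCs, from 973 fragments. The log2 ratio was -1.17, with a counting interval of -1.34 to -1.01. Notch2 stood 8.83-fold above Notch1 in mutant HSCs and 4.84-fold above it in control HSCs. The quotient of these within-library ratios was 1.82, with an exact 95% interval of 1.61 to 2.07, and it does not depend on how the libraries were scaled. Of the summed FPKM of the 4 receptors, Notch2 made up 88.9% in mutant HSCs and 81.4% in control HSCs, and Notch1 10.1% in mutant HSCs and 16.8% in control HSCs. The Notch1 gene shares 1068 exon bases with an antisense transcript gene, 0610009E02Rik, listed at 0 in mutant HSCs and at 0.45 FPKM in control HSCs. The sources used here do not say whether counting used strand.

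Notch4, best known from endothelium, was low at 0.18 FPKM (25 fragments) in mutant HSCs and 0.24 FPKM (34 fragments) in control HSCs. Its counting interval of -1.20 to 0.39 included equality, and no difference could be detected at this depth. Notch3, known from vascular smooth muscle and T cell progenitors, was listed at 0 in mutant HSCs and at 0.18 FPKM in control HSCs. At its annotated length the control value came to 25.1 fragments, which is not a whole number, so no exact interval is given. Notch3 shares 488 exon bases with an antisense gene, Gm17276, listed at 0 in mutant HSCs and at 0.17 FPKM in control HSCs, so the fragments of the pair may not be separable. Other genes at the level of Notch3 were listed at 0 too. Of 975 genes with 20 to 30 fragments in control HSCs, 94 (9.64%) were listed at 0 in mutant HSCs, whereas of 895 genes with 20 to 30 fragments in mutant HSCs 23 (2.57%) were listed at 0 in control HSCs.

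**Figure D1:**
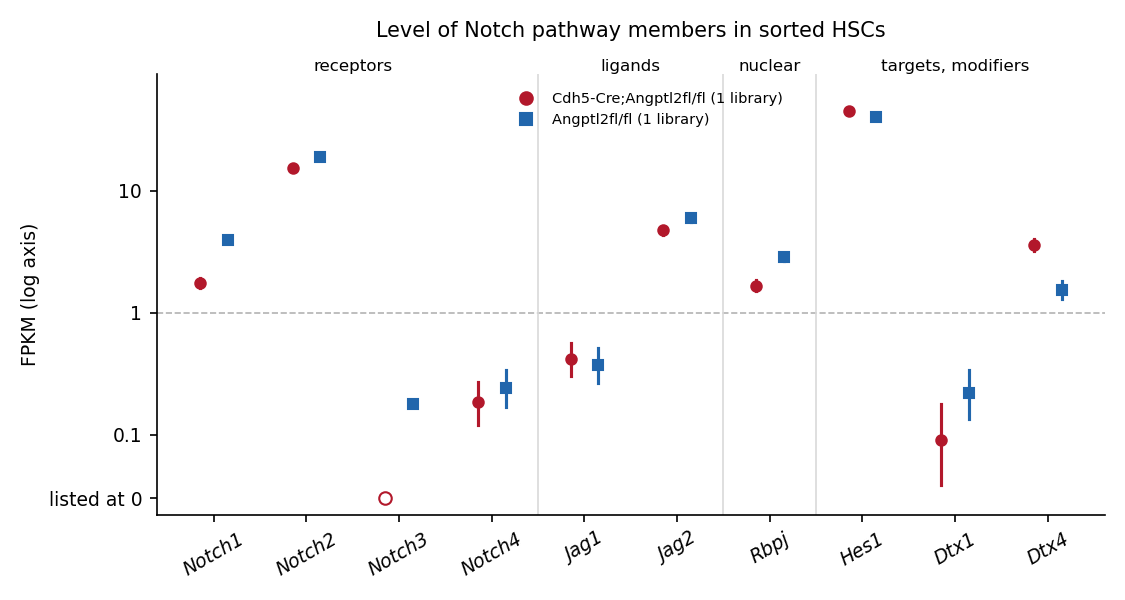
FPKM of the 10 members on a log axis, with Cdh5-Cre;Angptl2fl/fl (circles) left of Angptl2fl/fl (squares), 1 library each. Vertical bars are exact 95% Poisson intervals of the fragment number (not drawn for Notch3), the open circle marks a value listed at 0, and the dashed line marks 1 FPKM. Notch1 and Rbpj sit lower and Dtx4 higher in mutant HSCs, with bars that do not overlap, while Hes1 and Notch2 lie far above the other members in both.

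Of the ligands, Jag2 was well detected, at 4.72 FPKM (554 fragments) in mutant HSCs and 5.92 FPKM (717 fragments) in control HSCs. Its log2 ratio was -0.33 (counting interval -0.49 to -0.16). Jag2 and Notch2 kept their ratio to each other: Jag2 was at 0.307 of the Notch2 level in mutant HSCs and 0.311 in control HSCs, and the quotient of 0.986 had an interval of 0.871 to 1.11. Jag1, the ligand prominent on marrow endothelium, was at 0.42 FPKM (41 fragments) in mutant HSCs and 0.38 FPKM (38 fragments) in control HSCs. The interval of its log2 ratio, -0.52 to 0.83, included equality.

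Rbpj, the transcription factor through which all 4 receptors act, was at 1.66 FPKM (356 fragments) in mutant HSCs and 2.85 FPKM (631 fragments) in control HSCs. The log2 ratio was -0.78 (counting interval -0.97 to -0.59). Part of these fragments may belong to a processed pseudogene, Rbpj-ps3, which was listed at 4.45 FPKM (108 fragments) in mutant HSCs and 6.91 FPKM (173 fragments) in control HSCs, so the level of Rbpj is uncertain. With the pseudogene's fragments added, the log2 ratio was -0.75 (-0.92 to -0.58). Rbpj was lower by a smaller factor than Notch1. The Rbpj to Notch1 ratio was 0.951 in mutant HSCs and 0.724 in control HSCs, with a quotient of 1.31 (1.1 to 1.57).

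Hes1, a repressor of the bHLH family and the textbook Notch target, was the most abundant member. It was at 45.1 FPKM (1547 fragments) in mutant HSCs and 40.5 FPKM (1434 fragments) in control HSCs. The log2 ratio of 0.15 had a counting interval of 0.050 to 0.26. Hes1 was thus not lower where Notch1 and Rbpj were. The Hes1 to Rbpj ratio was 27.2 in mutant HSCs and 14.2 in control HSCs, a quotient of 1.91 (1.64 to 2.23), and the Hes1 to Notch1 quotient was 2.51 (2.19 to 2.88).

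Dtx1 and Dtx4 encode Deltex proteins, E3 ubiquitin ligases that bind the intracellular part of Notch. They lay on opposite sides. Dtx4 was at 3.58 FPKM in mutant HSCs and 1.54 FPKM in control HSCs. Its values were not whole fragments at the annotated 5226 bases. A length of 5765 bases was the only one within 50% of the annotated length that made both libraries whole, with 348 fragments in mutant HSCs and 154 in control HSCs. The same search was run on 1955 genes whose values were already whole at their annotated length. It gave that length in all 1589 genes with a single answer. That outcome was largely fixed by the choice of genes, so it does not check the length of Dtx4. On the 348 and 154 fragments, the log2 ratio of 1.22 had a counting interval of 0.94 to 1.5. Dtx1 was at 0.090 FPKM (8 fragments) in mutant HSCs and 0.22 FPKM (20 fragments) in control HSCs, and its interval of -2.67 to -0.032 came close to equality.

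Intervals of this kind excluded equality for many genes. They did so for 7 of the 9 members that had one. Among genes that averaged at least 1 FPKM they did so for 6 of 6 members and for 56.9% of the 11709 genes that had one. With the fragments divided by 6, a number taken from an earlier analysis of these data, 4 of these 6 members were left, Notch1, Notch2, Rbpj and Dtx4, against 18.2% of those genes. Dtx4 is counted here by its inferred length, whereas the genes it is set beside had whole fragments at their annotated length. On the log2(FPKM + 1) scale, which understates the difference of low genes, none of the 6 members that averaged at least 1 FPKM reached 2-fold, while 5.86% of 12325 genes and 1.24% of 10232 protein-coding genes did. On plain FPKM ratios, Notch1 was past 2-fold lower, as were 1.98% of those protein-coding genes, and Dtx4 past 2-fold higher, as were 1.34%. The 6 members had a median log2(FPKM + 1) difference of -0.28, with 4 below 0 and 2 above, beside a median of -0.011 and quartiles of -0.20 and 0.18 for all genes.

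**Figure D2:**
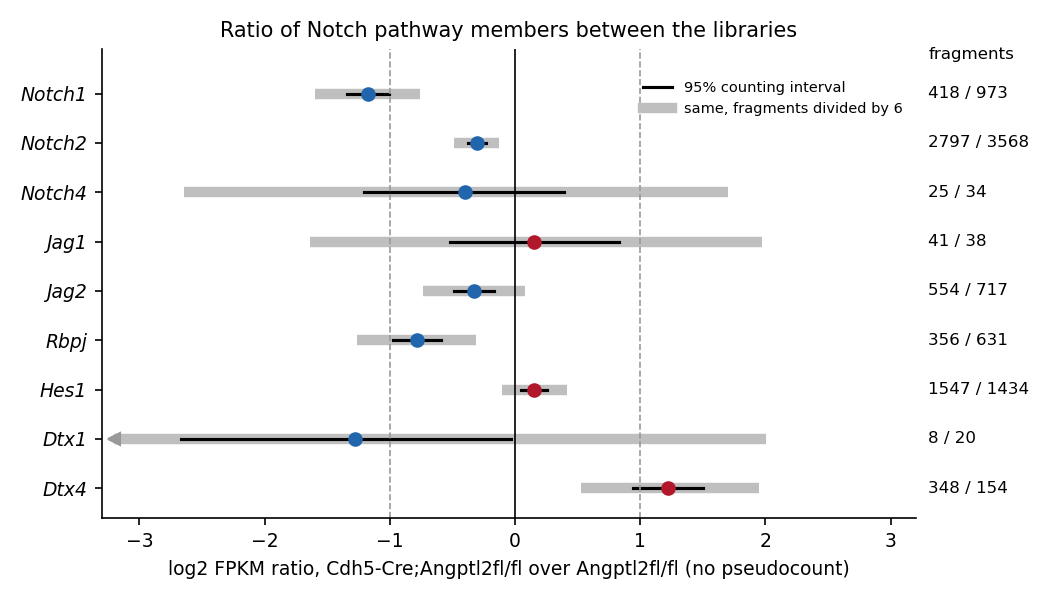
Plain log2 FPKM ratio of 9 members, Cdh5-Cre;Angptl2fl/fl over Angptl2fl/fl, with points right of 0 higher in mutant HSCs. Black lines are 95% counting intervals, grey bars the same with fragments divided by 6 (an arrow marks a bar that runs off the axis), dashed lines mark 2-fold, and the numbers at the right are fragments in mutant and control HSCs. Both bars of Notch1, Notch2, Rbpj and Dtx4 stay clear of 0, while the grey bars of Notch4, Jag1, Jag2, Hes1 and Dtx1 cross it.

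The difference between mutant and control HSCs also moved with gene length. Among protein-coding genes that averaged at least 1 FPKM, the median log2(FPKM + 1) difference was 0.11 for 1387 genes with under 2 kb of annotated exons. It was -0.13 for 927 genes of 10 kb or more, of which 75.1% lay below 0. Notch1, Rbpj and Notch2 belong to that longest class, and Hes1, at 2037 bases, is among the shorter genes. Within the longest class Notch1, at -0.85, was near the end, with 2 of the 927 genes at or below its value, itself included. Rbpj, at -0.53, had 16 genes (1.73%) at or below it. Notch2, at -0.29, was well inside the class, with 165 genes (17.8%) at or below it. Jag2, at -0.27, had 201 of 1433 genes of 6 to 8 kb at or below it, and Hes1, at 0.15, had 1057 of 3144 genes of 2 to 4 kb at or above it. Dtx4, at 0.85, had 11 of 2525 genes of 4 to 6 kb (0.436%) at or above it. A second ranking used plain log2 ratios of 3216 protein-coding genes at a like level, a mean of 1 to 5 FPKM. There 116 genes (3.61%) lay at or below Notch1, 265 (8.24%) at or below Rbpj and 66 (2.05%) at or above Dtx4. These shares were larger than those in the length classes, but both the measure and the set of genes differ. The part of gene length and of level in the members' values was not tested.

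**Figure D3:**
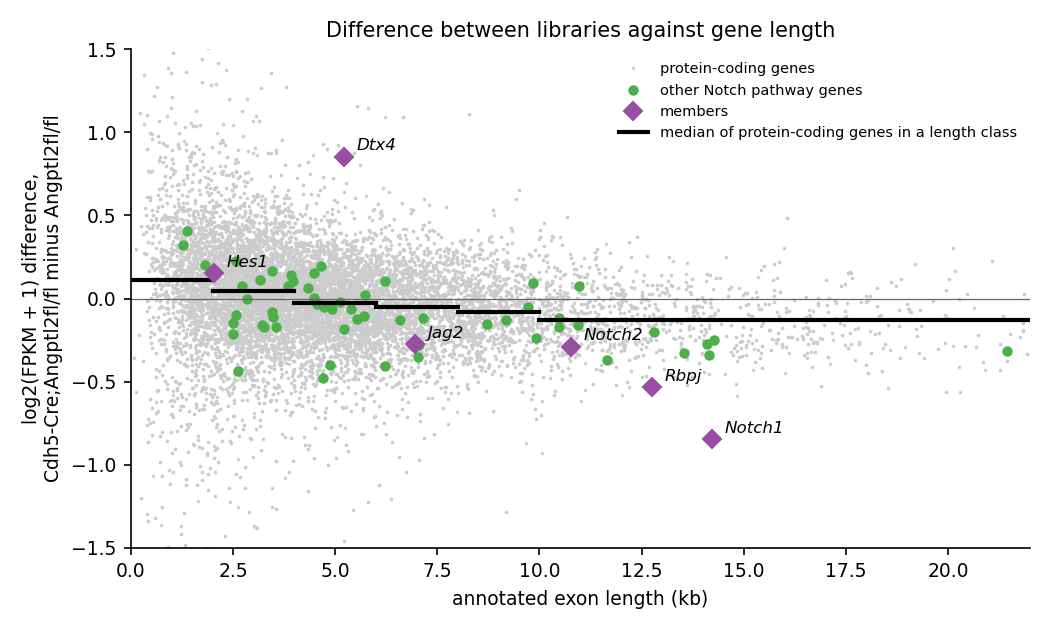
Difference in log2(FPKM + 1), Cdh5-Cre;Angptl2fl/fl minus Angptl2fl/fl, against annotated exon length in kb, for protein-coding genes that averaged at least 1 FPKM (grey points; 60 of 10232 lie outside the axes), other Notch pathway genes (green) and 6 members (purple). Black lines are medians of length classes and step down from 0.11 to -0.13. Notch1 and Rbpj lie under the line of their class and Dtx4 over it, while Hes1 lies close to its line.

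Levels of the members in order were Hes1, Notch2 and Jag2 at the top of both libraries. In mutant HSCs Dtx4 came next, then Notch1 and Rbpj, whose counting intervals overlapped. In control HSCs Notch1 came next, then Rbpj and Dtx4, with intervals that did not overlap. Jag1 followed in both, but in control HSCs its interval overlapped those of Notch4 and Dtx1. Notch4 and Dtx1 overlapped in both. These levels are per base of all annotated exons, and the longest coding transcript is shorter, 9488 of 14232 bases for Notch1 and 5485 of 12750 for Rbpj. Per base of that transcript, Rbpj was at 3.85 FPKM in mutant HSCs and 6.62 in control HSCs. Notch1 was at 2.62 FPKM in mutant HSCs and 5.90 in control HSCs, so on this rescaling Rbpj stood above Notch1 in each. The rescaling assigns every fragment of a gene to its longest coding transcript, which was not tested.

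The rest of the pathway was examined through 76 further genes in 7 lists by role, of which 57 averaged at least 1 FPKM. None of the 57 reached 2-fold on the log2(FPKM + 1) scale in either direction. In all, 39 lay below 0 and 18 above, with a median of -0.11. Among all 12325 genes that averaged at least 1 FPKM, 6354 lay below 0 and 5970 above. Of 16 pathway genes with 8 kb or more of exons 14 lay below 0, against 10 of 20 under 4 kb. Among protein-coding genes, 66.5% lay below 0 at 8 to 10 kb and 75.1% at 10 kb or more. The share was 43.3% at 2 to 4 kb and 35.5% under 2 kb. In between, it was 54.6% at 4 to 6 kb and 60.2% at 6 to 8 kb. Pathway genes of 4 to 8 kb are in neither of the counts by length given above. The part of gene length in the pathway counts was not tested.

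Other ligands were almost absent. Dll4, the Delta-like ligand of endothelium and thymus, was the single one at the minimum, at 1.13 FPKM (73 fragments) in mutant HSCs and 1.02 FPKM (68 fragments) in control HSCs. Dll1, also a Delta-like ligand, was at 0.21 FPKM in mutant HSCs and 0.23 in control HSCs. The machinery that cuts the receptor was present. Of 9 genes of processing and gamma-secretase at the minimum, 6 were below 0, and the ends were Psenen, a gamma-secretase subunit, 1.26-fold higher at 42.4 FPKM in mutant HSCs and 33.8 in control HSCs, and Aph1c, another, at 1.36 FPKM in mutant HSCs and 1.68 in control HSCs. Adam10, which makes the ligand-dependent cut, was at 40.2 FPKM in mutant HSCs and 42.0 in control HSCs. The glycosyltransferases that modify the receptors ranged from Pofut1, which adds O-fucose, at 7.12 FPKM in mutant HSCs and 8.56 in control HSCs, to Poglut1, which adds O-glucose, at 7.97 FPKM in mutant HSCs and 6.84 in control HSCs.

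In the nucleus, 8 of 9 coactivator genes that averaged at least 1 FPKM lay below 0, with a median of -0.12. Among the 9 the acetyltransferase gene Kat2b was lowest, at 5.70 FPKM in mutant HSCs and 7.84 in control HSCs, and Cdk8, a kinase that marks the Notch intracellular domain for degradation, was highest at 8.89 FPKM in mutant HSCs and 8.26 in control HSCs. Under that minimum, Maml2, a Mastermind-like coactivator gene, was 2.52-fold lower on plain FPKM, at 0.45 FPKM (50 fragments) in mutant HSCs and 1.13 FPKM (130 fragments) in control HSCs. Corepressors had 8 of 13 below 0 and a median of -0.16. They ran from Tle2, a Groucho-type corepressor, at 2.71 FPKM in mutant HSCs and 3.92 in control HSCs, to the deacetylase gene Hdac1 at 50.7 FPKM in mutant HSCs and 45.1 in control HSCs. Of 11 trafficking and turnover genes at the minimum 8 were below 0, from Dtx2, a further Deltex gene, at 1.97 FPKM in mutant HSCs and 2.78 in control HSCs, to Numb, an endocytic Notch inhibitor, at 6.82 FPKM in mutant HSCs and 6.10 in control HSCs. The other 3 genes of that list, under the minimum, were further below 0 than Dtx2. Neurl1b, a Neuralized-type ubiquitin ligase gene, had 14 fragments in mutant HSCs and 91 in control HSCs, Numbl, a relative of Numb, had 35 in mutant HSCs and 138 in control HSCs, and Neurl1a was listed at 0 in mutant HSCs and at 0.37 FPKM in control HSCs.

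Of the other genes known as Notch targets, 5 of the 9 at the minimum were below 0, with a median of -0.066, and 11 of all 17 were below 0 and 5 above. Among the 9, Hes5, a close relative of Hes1, was highest at 2.004 FPKM (46 fragments) in mutant HSCs and 1.27 FPKM (30 fragments) in control HSCs. Ccnd1, which encodes cyclin D1, was lowest of the 9 at 0.98 FPKM (78 fragments) in mutant HSCs and 1.76 FPKM (144 fragments) in control HSCs. Gata3, a T cell transcription factor gene under the minimum, had 18 fragments in mutant HSCs and 56 in control HSCs. Nrarp, a feedback inhibitor induced by Notch, was at 2.05 FPKM in mutant HSCs and 1.60 in control HSCs. Hey1, a repressor related to Hes1, was at 7.15 FPKM in mutant HSCs and 8.18 in control HSCs. Myc, a growth regulator, was at 66.6 FPKM in mutant HSCs and 63.2 in control HSCs. Dll1, Adam10, Maml2, Neurl1b, Numbl, Neurl1a, Gata3, Nrarp, Hey1 and Myc were named after their values were seen.

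**Figure D4:**
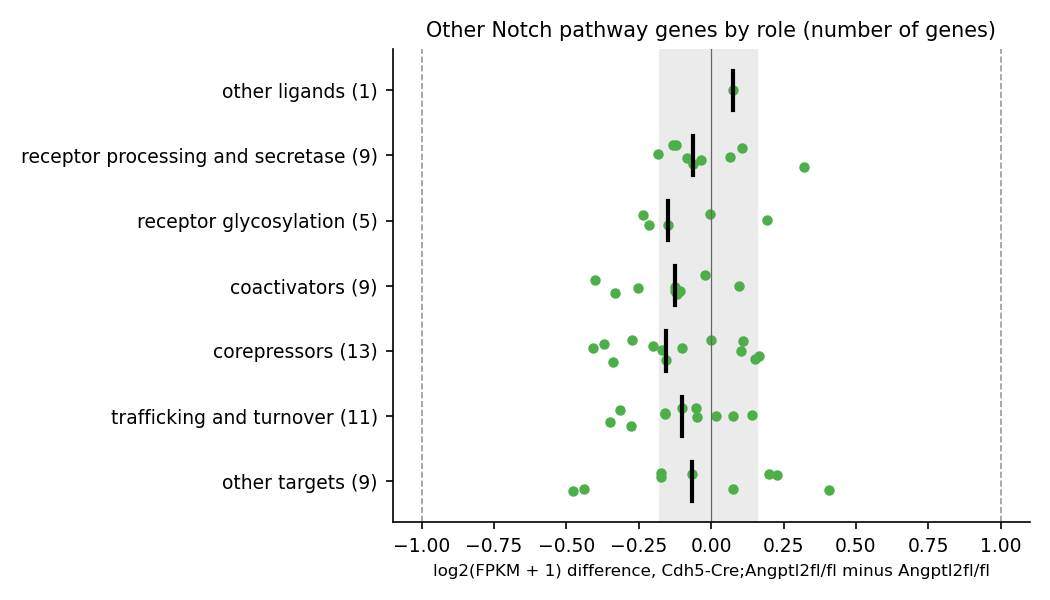
Difference in log2(FPKM + 1), Cdh5-Cre;Angptl2fl/fl minus Angptl2fl/fl, for the 57 other Notch pathway genes that averaged at least 1 FPKM, by role with the number of genes. Each point is a gene, black ticks are list medians, the grey band holds the middle quartiles of protein-coding genes (-0.17 to 0.16) and dashed lines mark 2-fold. All points lie between -0.48 and 0.41, and every list with more than 1 gene has its median below 0.

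Markers of other marrow cells differed between the libraries alongside the members. All 10 monocyte and macrophage markers were lower in mutant HSCs, with a summed level of 17.8 FPKM in mutant HSCs and 39.5 in control HSCs, and with Vsig4 at 0 in mutant HSCs and at 4 fragments in control HSCs. All 8 mature neutrophil markers were lower, at a sum of 430 FPKM in mutant HSCs and 1103 in control HSCs. Of 10 T lineage markers 9 were lower, at a sum of 2.77 FPKM in mutant HSCs and 5.35 in control HSCs. Cd3d, Cd3e, Cd3g and Cd8a were at 0 in mutant HSCs and had only 2, 6, 7 and 11 fragments in control HSCs. Of 8 B lineage markers 5 were lower and 3 higher, at a sum of 17.5 FPKM in mutant HSCs and 12.5 in control HSCs. Of 8 megakaryocyte markers 6 were higher and 2 lower, at a sum of 168 FPKM in mutant HSCs and 76.4 in control HSCs. Of 14 endothelial markers 9 were lower and 4 higher, at a sum of 101 FPKM in mutant HSCs and 109 in control HSCs. Most of that sum was Eng, at 59.6 FPKM in mutant HSCs and 66.4 in control HSCs. Sox17 was at 0 in both, and Cdh5 was at 0 in mutant HSCs and at 2 fragments in control HSCs. Of 9 erythroid markers 6 were lower, Alas2 by 3.003-fold on plain FPKM, while the sum was 2113 FPKM in mutant HSCs and 1857 in control HSCs, most of it Car1. Of 7 stromal markers 4 were lower and 2 higher, at a sum of 7.84 FPKM in mutant HSCs and 8.70 in control HSCs, with Lepr at 0 in both and Col1a1 at 4 fragments in mutant HSCs and 68 in control HSCs. The part of these cells in the values of Notch1, Rbpj, Notch2, Jag2 and Dtx4 was not tested.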

How the data were processed

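RNA of sorted bone marrow HSCs was sequenced as 150 bp paired-end reads, per the labels' protocols. The authors deposited FPKM for 54531 Ensembl genes, 1 library per genotype. Per the submitters' processing notes, Bowtie 0.12.2 and mm8 were used in a role left unstated. Which program counted fragments, and on which annotation, is not given in the sources used here. Columns were matched to samples by the sample description.

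Exon lengths and positions came from GENCODE M21 (GRCm38), found with a symbol for 54408 identifiers. FPKM times length lay within 0.02 of a whole fragment number for 99.9% of genes above 0 outside chromosomes 17, 18 and 19 in each library, but for 63.1% on those 3 in mutant HSCs and 66.2% in control HSCs. Notch3, Notch4 and Dtx4 lie there, and the values of Notch4 were whole in both libraries.

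Ratios are mutant over control, on log2(FPKM + 1) or, where called plain, without a pseudocount. Genes were counted at a mean of at least 1 FPKM and 2-fold. Intervals are at 95%. The recovery of depth and fragments and the counting intervals of ratios were tested on simulated libraries, and the other steps were not. Tools were Python 3.11.15 and scipy 1.17.1. Members, lists and rules were chosen with earlier results of these data known. All members were named, and of each other pathway list the genes past 2-fold or else the highest and lowest. Alternatives were other pseudocounts, minimums, thresholds and scalings.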

Additional observations from a re-analysis of the deposited data

How the results depend on the processing

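The count of members past 2-fold, 0 on log2(FPKM + 1), became 2 (Notch1 and Dtx4) with a pseudocount of 0.1 FPKM, 2 with plain FPKM ratios, 2 at a threshold of 1.5-fold and 1 (Notch1) with FPKM rescaled to sum to 1000000 in each library (a common total). It stayed at 0 with a pseudocount of 5 FPKM, no minimum, a minimum mean of 5 FPKM, median centring, trimmed-mean scaling, scaling without mitochondrial genes, a 4-fold threshold and centring on genes of like exon length. The count of other pathway genes past 2-fold, 0, became 2 (Numbl and Neurl1b) with the common total and stayed at 0 otherwise. The count over all genes changed with the rule too. It was 305 higher and 417 lower on log2(FPKM + 1), and 471 and 599 with a pseudocount of 0.1 FPKM. With plain ratios it was 420 higher and 389 lower, but genes listed at 0 in either library were left out there. That split is therefore over another set of genes than the other settings and does not compare with them. At 1.5-fold the count was 708 and 749, and with the common total 618 and 1182. Under the common total the median over all genes was -0.16, against -0.011, and Hes1 was at 0.0067. The members' median lay between -0.44 with the common total and -0.19 with centring on genes of like exon length. The count of members whose interval excluded equality, 7, became 4 with fragments divided by 6, 7 with trimmed-mean scaling and 6, without Dtx1, with scaling that left out mitochondrial genes. In the alternatives 9 of 10 members kept their sign, and Notch4 turned to 0.012 with centring on genes of like exon length. Of 79 member values under alternatives, 22 were called moved. These shifted by at least the distance from the middle to an end of the member's plain-ratio counting interval, or had no interval. Plain ratios and length centring were chosen after seeing the data. Depth limits Notch3, Notch4, Jag1 and Dtx1. No paired analysis was possible because each genotype has 1 library.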

Other observations

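In mutant HSCs 18217 genes were above 0, against 21891 in control HSCs. Of the 76 other Notch pathway genes, 8 were listed at 0 in mutant HSCs alone and 2 in control HSCs alone, and 3 in both. The 8 include Dlk1, a Delta-like protein that lacks the usual Notch-binding domain, with 26 fragments in control HSCs, and the target genes Heyl with 13 and Hes3 with 9 fragments there. The 2 were Dlk2, with 4 fragments in mutant HSCs, and Ptcra, the pre-T cell receptor alpha chain, with 6 fragments there. These genes were named after their values were seen, and the cause of the uneven zeros was not tested.

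Exon lengths of a GRCm38 annotation gave whole fragments for 99.9% of genes outside chromosomes 17, 18 and 19, although mm8 is the build named in the submitters' processing notes.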
